A study of Mus musculus with 6 samples.

Results

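Creb3l4 and 9 other regulators of the endoplasmic reticulum (ER) stress response were followed in mouse ventral prostate: Creb3l1, Creb3, Atf6, Atf4, Xbp1, Hspa5, Ddit3, Herpud1 and Ern1. All probes carrying these 10 gene names on an Agilent whole mouse genome array were taken, which gave 11 of the 41174 probes that are not controls. Atf6 has 2 probes and each other gene has 1. The set was chosen by the fl26 log2 ratio of Creb3l4, and the other genes were added for their place in the pathway with earlier results known. All 11 probes passed the filter on dim signal, as did 27860 probes in all.

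Total RNA of ventral prostate from FVB mice was compared on 6 arrays with 2 colours each. The red dye (Cy5) carried line fl26, transgenic for 15-LOX2 and 2.5 months old, line svb9, transgenic for 15-LOX2 splice variant b and also 2.5 months old, or wild type mice of 15 months. The green dye (Cy3) carried wild type mice of 2.5 months on every array, with 1 dye orientation throughout, so in a ratio to young wild type the effects of dye and group cannot be told apart. There are 2 arrays per group, from independent samples according to the design text. Each transgene was studied in 1 line, and the promoter that drives it is not given in the sources used here. RNA was pooled, from 3 mice per pool in the sample labels and from 6 mice with combined lobes in the design text. The p-values measure the spread between pools, and whether arrays share a young wild type pool is not given in the sources used here. Unless stated otherwise, a value is the log2 of red over green, above 0 where the named group was higher than young wild type.

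15-LOX2 is a lipoxygenase that oxidizes arachidonic acid. Secretory cells such as those of the ventral prostate pass large amounts of protein through the ER. When unfolded protein builds up there, the membrane sensors IRE1 (gene Ern1), PERK and ATF6 start the unfolded protein response, which raises chaperones and degradation factors and slows translation. Creb3l4, Creb3l1 and Creb3 belong to the CREB3 family, transcription factors anchored in the ER membrane and released by proteolysis in the Golgi in the same manner as ATF6. Creb3l4, also called AIbZIP, is known as an androgen-induced gene of prostate epithelium.

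Red signal was weak in old wild type. On old wild type array 1, 3219 probes were well above background in red, against 13600 to 27833 on the other 5 arrays. In green the range was 24837 to 30382. Of the 11 member probes, all had green signal well above background on every array. Red signal was so on both arrays for 11 probes of fl26, 11 of svb9 and 3 of old wild type. On old wild type array 1 it was well above background for Atf4, Hspa5 and Herpud1 only, and on array 2 for 10 probes. No member probe was saturated.

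On all 6 arrays the Creb3l4 ratio lay below 0, farthest in fl26 after loess normalization, whereas median centring put old wild type (-2.74) below fl26 (-1.34). Its log2 ratio was -1.71 and -1.54 on the fl26 arrays, -0.22 and -0.63 on the svb9 arrays, and -0.47 and -0.77 on the old wild type arrays. The fl26 values lay below all 4 others, and the svb9 and old wild type values overlapped. Red signal was well above background on every array except old wild type array 1. In bulk tissue, fewer cells of a type and less RNA per cell cannot be told apart.

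**Figure D1:**
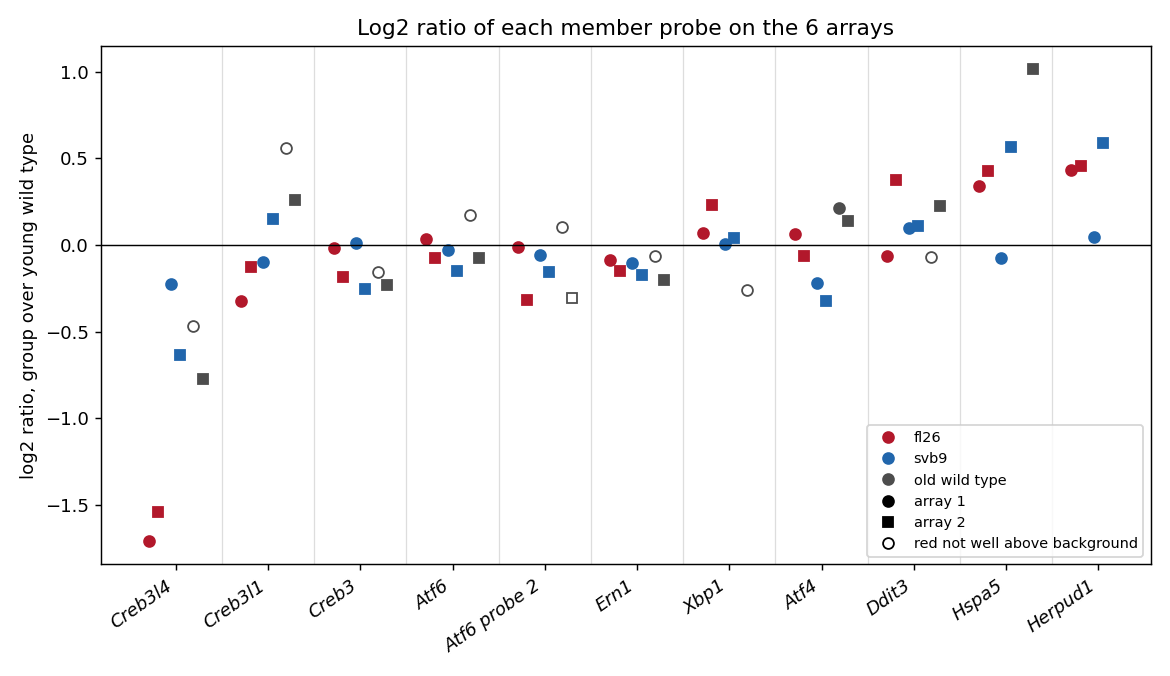
Log2 ratio of each member probe over young wild type (vertical axis), with 1 point per array and colours for fl26, svb9 and old wild type. Open points had red signal not well above background, and 4 values of flagged spots in old wild type are missing. Creb3l4 lies below 0 on all 6 arrays, with the fl26 arrays at -1.71 and -1.54.

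The group means of Creb3l4 were -1.62 ± 0.13 in fl26 (limma standard error, n = 2), a level 3.08-fold lower than in young wild type, -0.43 ± 0.13 in svb9 (1.35-fold lower) and -0.62 ± 0.13 in old wild type (1.54-fold lower). The standard errors pool the spread of all 6 arrays. Creb3l4 heads this set because it was 1 of the 14 probes called in fl26, with a limma adjusted p of 0.0317 under the threshold of 0.05, so its fl26 ratio is a description and supports nothing. Over all tested probes 0.0503% were called in fl26, and 1 of the 11 member probes was. Leaving out any 1 of the 6 arrays ended the call, with limma adjusted p from 0.0932 to 0.291, and the log2 ratio then stayed between -1.71 and -1.54. The call was also lost with median centring (limma adjusted p = 0.9998), with the Feature Extraction log ratios (0.0800), without background correction (0.0621) and with the fl26 arrays alone (0.189). Its ratio ranked 6 from the lowest of 27860 probes. Just inside that threshold was Ubash3b (log2 ratio -0.79, adjusted p = 0.0486), and just outside were Trp63 (0.82) and Cwc22 (1.20), both with an adjusted p of 0.0589 from limma.

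In svb9 and old wild type, which did not choose the gene, Creb3l4 did not pass over all probes. The limma adjusted p was 0.980 in svb9, where the 95% interval of the log2 ratio was -0.74 to -0.12, and 0.206 in old wild type, where it was -0.93 to -0.31. Limma called 0% of all tested probes in each of these comparisons and 0 member probes. With the replicate number as a block, Creb3l4 was called in old wild type (limma adjusted p = 0.0303, with 4.38% of all probes called), and with a normexp offset of 16 (adjusted p = 0.0464), but not with extraction date as a term (adjusted p = 0.143, with 0.0398% of all probes called). Over 18 alternatives its adjusted p lay between 0.0303 and 0.801. The share of all probes called with the offset of 16 is not given here. Over 19 alternatives the count of all probes called in old wild type lay between 0 and 1211. On the array whose red signal was well above background the value was -0.77, and without that array it was -0.47.

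The Creb3l4 ratios were also read as levels of the 2 channels. These were computed from the normalized ratio and mean intensity, so they are no separate measurement. Normalized log2 intensity of young wild type (green) ranged from 9.62 to 10.5 over the 6 arrays, with a median of 9.87 and an SD of 0.32. The red level was 7.94 and 8.32 in fl26, 9.39 and 9.24 in svb9, and 9.58 and 9.72 in old wild type. Both fl26 levels lay below the other 10. The normalized green level was highest on the old wild type arrays (10.05 and 10.49). Before normalization the green intensity of old wild type array 1 was 1020, the lowest of the 6 arrays. Its red intensity was 96.6 over a background of 77, not well above background, and normalization gave it a level of 9.58.

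**Figure D2:**
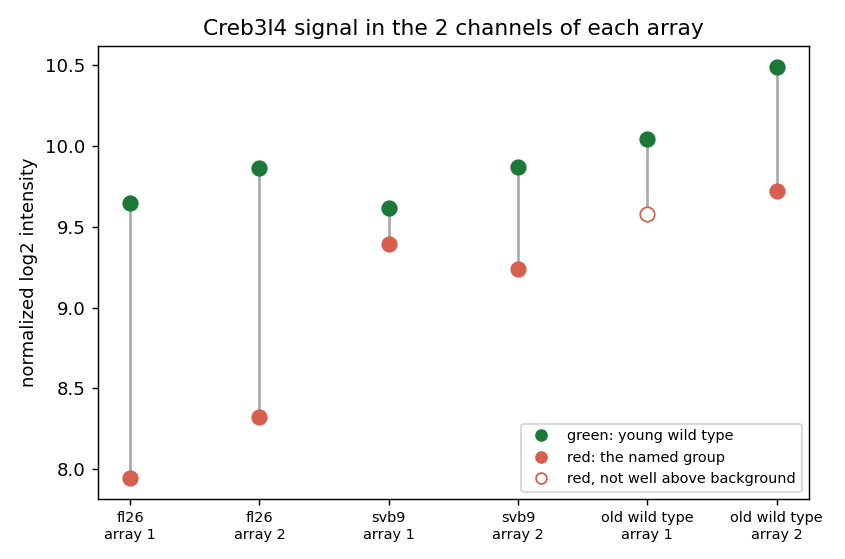
Normalized log2 intensity of the Creb3l4 probe (vertical axis) in the green channel, young wild type, and the red channel, the named group, of each of the 6 arrays, joined by a line. The red level of fl26 lies at 7.94 and 8.32, and the open point had red signal not well above background.

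Between red groups the dye is the same. Creb3l4 was lower in fl26 than in svb9 by a log2 difference of -1.19 ± 0.18 and higher in old wild type than in fl26 by 1.002 ± 0.18, both given as descriptions because they hold the fl26 arrays. Old wild type and svb9 did not differ past the threshold, with a difference of -0.19 (95% interval -0.63 to 0.24, limma adjusted p = 0.9999). The arrays were extracted from their scans on 3 dates, each holding 2 groups. Within a date, Creb3l4 in fl26 was lower than in svb9 by a log2 difference of -1.48, old wild type was above fl26 by 1.07, and old wild type differed from svb9 by -0.14. The order from lowest to highest was fl26, old wild type and svb9, of which the last pair are not separated by their spread. With median centring in place of loess the order changed, with old wild type lowest at -2.74, fl26 at -1.34 and the difference of old wild type from fl26 at -1.41.

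Creb3l1 and Creb3, the other CREB3 family members of the set, had ratios closer to 0 in fl26 than Creb3l4. Creb3l4 was chosen for its fl26 ratio, so the outcome of that comparison was fixed in advance. Creb3l1, known as OASIS and for its role in matrix secretion, had -0.32 and -0.13 in fl26, -0.10 and 0.15 in svb9, and 0.56 and 0.26 in old wild type. The old wild type values were the highest and did not overlap the other groups, although red signal on array 1 was not well above background. How many of all probes were separated in this way is not given here. The mean in old wild type was 0.41 ± 0.11, with a limma adjusted p of 0.263 over all probes. It was 0.79 with a normexp offset of 16, 1.37 with the Feature Extraction log ratios and -0.083 with median centring. Its difference from svb9 was 0.39 (95% interval 0.0058 to 0.77, limma adjusted p = 0.9999), and within the shared date it was 0.11.

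Creb3, or Luman, had -0.02 and -0.18 in fl26, 0.01 and -0.25 in svb9, and -0.16 and -0.23 in old wild type. Its groups overlapped, and the means in svb9 (-0.12 ± 0.09) and old wild type (-0.19 ± 0.09) did not pass (limma adjusted p = 0.980 and 0.492).

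The stress sensors showed small ratios. Ern1, which encodes the kinase and nuclease IRE1, was slightly below 0 on every array. Its values were -0.08 and -0.15 in fl26, -0.11 and -0.17 in svb9, and -0.06 and -0.20 in old wild type. The groups overlapped, and neither svb9 (mean -0.14 ± 0.08) nor old wild type (-0.13 ± 0.08) passed, with limma adjusted p of 0.980 and 0.554.

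The brighter of the 2 probes of Atf6, the sensor whose cytosolic part becomes a transcription factor, ranged from -0.15 to 0.17 over the 6 arrays. The second probe ranged from -0.31 to 0.10. In old wild type the probes gave group means of 0.05 and -0.10, and red signal of the second was not well above background on either array. The limma adjusted p of both probes was 0.981 in svb9 and 0.879 and 0.794 in old wild type.

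Among the transcription factors that act below the sensors, Atf4 lay below 0 in svb9 and above 0 in old wild type, where median centring turned it to -1.57. Atf4 is translated when PERK slows protein synthesis and drives genes of amino acid supply. It had 0.06 and -0.06 in fl26, -0.22 and -0.32 in svb9, and 0.21 and 0.14 in old wild type, with red signal well above background on all 6 arrays. These groups did not overlap, but the share of all probes whose groups were likewise separated is not given here. The mean was -0.27 ± 0.08 in svb9 (limma adjusted p = 0.980) and 0.18 ± 0.08 in old wild type (limma adjusted p = 0.453). The difference of old wild type from svb9 was 0.45 (95% interval 0.19 to 0.71), or 0.46 within the shared date, and it did not pass over all probes (limma adjusted p = 0.9999).

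Xbp1, whose mRNA is spliced by IRE1 into the form that encodes an active factor, had 0.07 and 0.23 in fl26 and 0.0073 and 0.041 in svb9. In old wild type array 1 gave -0.26 with red signal not well above background, and the spot on array 2 was flagged as an outlier. The position of the probe was not analysed here, so the values do not tell spliced from unspliced mRNA. Ddit3, which encodes the factor CHOP and is raised in prolonged stress, had -0.07 and 0.38 in fl26, 0.10 and 0.11 in svb9, and -0.07 and 0.23 in old wild type. Its arrays spread more within fl26 and old wild type than the groups differed. Limma gave adjusted p of 0.992 for Xbp1 and 0.982 for Ddit3 in svb9, and 0.481 and 0.843 in old wild type, where Xbp1 rests on 1 array.

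The target genes Hspa5 and Herpud1 had the highest group means of the set in fl26 and svb9. Hspa5 encodes BiP, the main ER chaperone, and Herpud1 encodes a membrane protein of ER-associated degradation. Both are textbook targets of the response, reached through ER stress response elements in their promoters, so the promoters are shown here with the element found in capitals (RefSeq, GRCm38.p6, 250 bases before to 50 after the gene's start, 5′ to 3′). The Hspa5 promoter lies at chr2:34771840-34772139, plus strand, and that of Herpud1 at chr8:94386179-94386478, plus strand.
Hspa5: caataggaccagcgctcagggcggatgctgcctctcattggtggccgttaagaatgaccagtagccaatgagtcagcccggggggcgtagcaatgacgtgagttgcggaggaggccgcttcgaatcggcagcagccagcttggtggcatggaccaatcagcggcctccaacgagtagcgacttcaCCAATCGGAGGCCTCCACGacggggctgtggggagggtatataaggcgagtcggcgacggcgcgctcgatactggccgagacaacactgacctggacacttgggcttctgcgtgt
Herpud1: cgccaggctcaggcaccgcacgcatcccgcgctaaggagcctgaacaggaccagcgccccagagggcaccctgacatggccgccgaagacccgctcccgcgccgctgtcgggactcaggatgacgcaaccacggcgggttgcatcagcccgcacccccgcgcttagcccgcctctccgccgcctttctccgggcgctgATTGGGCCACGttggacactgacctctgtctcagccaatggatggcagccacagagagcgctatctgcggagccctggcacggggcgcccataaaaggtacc

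The Hspa5 window holds 1 match to the ER stress response element ERSE, from -65 to -47 relative to the start, and that of Herpud1 holds 1 match to ERSE-II, from -52 to -42. Searched on both strands, ERSE occurs in 0.119% and ERSE-II in 0.0365% of 32851 promoter windows of the same length. UPRE (TGACGTGG, in 0.676%), CRE (TGACGTCA, in 1.79%) and the ATF4 element of Ddit3 (ATTGCATCA, in 0.192%) had no exact match in any member window. The Herpud1 window holds TTGCATCA, which is that ATF4 element without its first letter. Near matches were not searched for, and other windows hold them too. The Creb3 window holds GACGTGG, which is UPRE without its first letter. The Hspa5 window holds TGACGTGA, which differs from UPRE and from CRE in a single letter. None of the 5 motifs was found in the windows of Creb3l4, Creb3, Atf4, Xbp1, Ddit3 or Ern1, and 8 of the 10 genes had an entry. These matches are descriptions of letters in a window.

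Hspa5 had 0.34 and 0.43 in fl26, -0.08 and 0.57 in svb9, and 1.01 on old wild type array 2, whereas array 1 was flagged as an outlier spot. Herpud1 had 0.44 and 0.45 in fl26 and 0.045 and 0.59 in svb9, and both old wild type spots were flagged. In fl26 both arrays were above 0 for each gene, with means of 0.38 ± 0.16 and 0.44 ± 0.14, and in svb9 the 2 arrays disagreed by more than any other member. Kept, the flagged spots would read 1.65 for Hspa5 on array 1, and 1.30 and 0.38 for Herpud1, and the Hspa5 value on array 2 would then be 0.58 in place of 1.01. The old wild type mean of Hspa5 was 0.61 with extraction date as a term and turned to -0.91 with median centring. The limma adjusted p in svb9 was 0.980 for each gene, and 0.235 for Hspa5 in old wild type from 1 array.

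By mean intensity the Hspa5 probe ranked 114 and the Herpud1 probe 123 of 27860 tested probes, and the ratios of bright probes moved with the arrays. Over the 200 brightest tested probes the median log2 ratio was -0.14 and 0.18 for the fl26 arrays, -0.11 and 0.22 for the svb9 arrays, and 5.08 and 0.39 for the old wild type arrays. Hspa5 and Herpud1 in svb9 were likewise higher on array 2. Both stood above the upper quartile of those probes on the fl26 arrays (0.012 and 0.39) and on svb9 array 2 (0.49). On svb9 array 1 (quartile -0.0011) Herpud1 stood above it and Hspa5 below. On old wild type array 2 (quartile 0.88) Hspa5 stood above it at 1.01. The part of brightness in these ratios was not tested.

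At an unadjusted p below 0.05 the limma fit had 2 of 11 member probes in svb9 (Creb3l4 and Atf4, both lower), against 4.45% of all probes. In old wild type it had 3 of 10 (Creb3l4 lower, Creb3l1 and Hspa5 higher), against 11.4% of all probes. Hspa5 has 1 old wild type array, which is assumed to vary like the other groups, in this count and the next. Between old wild type and svb9 it had 3 of 10 (Atf4, Creb3l1 and Hspa5, all higher in old wild type), against 4.71%. Creb3l4 entered the counts of svb9 and old wild type with the pooled spread and dye orientation of the fl26 call that chose it. Adjusted over all probes, 0 member probes passed in these comparisons, as did 0% of all probes. Leaving out Creb3l4, the other 10 probes ranged from -0.23 to 0.44 in fl26 and from -0.27 to 0.32 in svb9, and those with a value in old wild type ranged from -0.26 to 1.01.

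A few other genes followed the pattern of Creb3l4 over the 6 arrays. Among 1750 genes with an SD of at least 0.3, Pearson's r with Creb3l4 was highest for Nrcam, a cell adhesion gene (r = 0.99), Sp100, a nuclear body gene (0.98), 1700018F24Rik (0.98), Ubash3b (0.98) and Uba1y (0.98). In fl26 Nrcam had -1.26 and -1.14 and Sp100 had -0.87 and -0.78, while in svb9 they had -0.04 and -0.28, and -0.10 and -0.32. All points share the young wild type reference, and the fl26 arrays set most of the likeness, so r is a description of 6 arrays. Of the other member probes Creb3l1 was closest (r = 0.62, 6 arrays) and Xbp1 farthest (r = -0.63, 5 arrays).

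**Figure D3:**
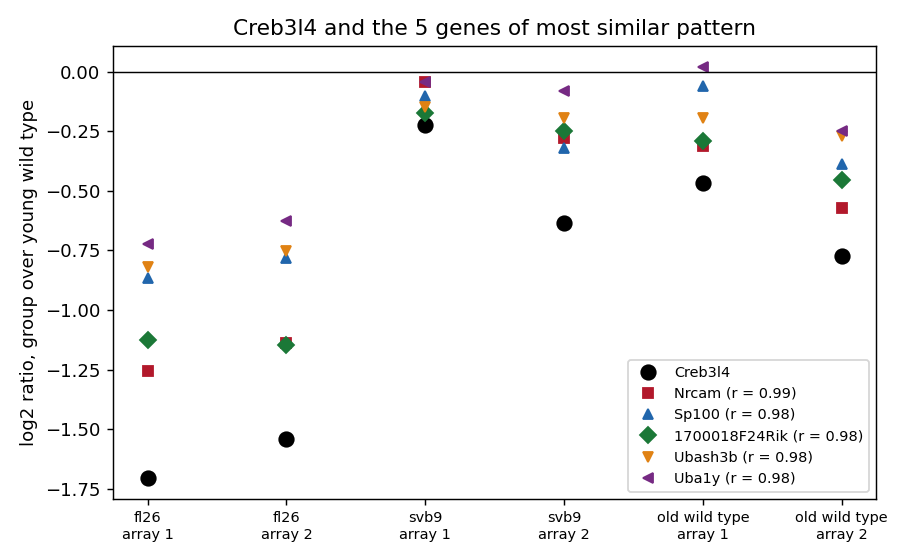
Log2 ratio over young wild type (vertical axis) of Creb3l4 and the 5 genes of highest correlation with it, on each of the 6 arrays. All 6 genes lie lowest on the fl26 arrays, with Creb3l4 at -1.71 and -1.54.

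The genes beside Creb3l4 on its chromosome did not share its ratio. Of the 4 nearest protein-coding genes on each side, 6 were tested, and their log2 ratios in fl26 ranged from -0.38 to -0.08. In svb9 they ranged from -0.19 to -0.03, and the 5 with a value in old wild type from -0.11 to 0.12.

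The wider pathway was read through 5 lists, each gene by its brightest tested probe. Sensors of the unfolded protein response and CREB3 family genes had a median log2 ratio of -0.07 in fl26 (5 of 16 higher), -0.05 in svb9 (6 of 16) and 0.0074 in old wild type (8 of 16). Creb3l4 was the 1 gene of this list called in fl26. ER chaperones had medians of 0.05 (10 of 18 higher), -0.0087 (9 of 18) and -0.14 (6 of 14). Genes of ER-associated degradation had 0.16 (13 of 19 higher), -0.02 (9 of 19) and -0.12 (5 of 18). PERK and ATF4 targets had 0.08 (16 of 25 higher), 0.01 (13 of 25) and 0.04 (14 of 24), and genes of ER to Golgi transport had 0.0045 (10 of 20), -0.03 (9 of 20) and -0.02 (9 of 18). Over all genes the medians were 0.0035, 0.0009 and -0.01, with 51.1%, 50.4% and 45.8% higher. On both old wild type arrays, red signal was well above background for 2 of 16 sensor genes. It was so for 7 of 25 PERK and ATF4 targets, and for 12 to 17 genes in each other list.

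**Figure D4:**
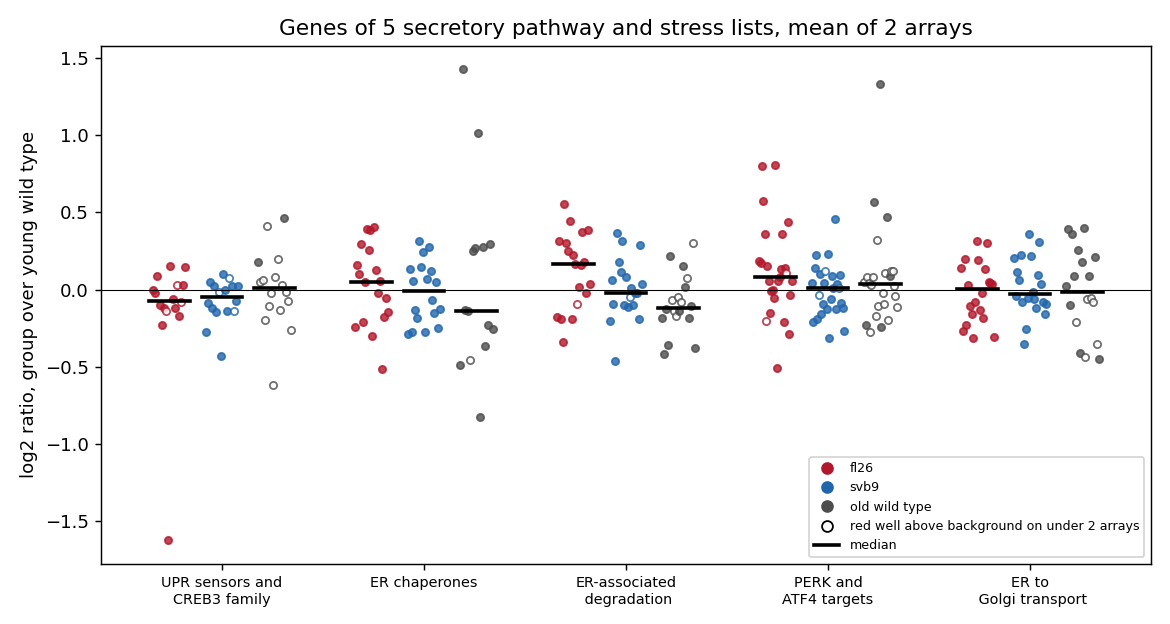
Log2 ratio over young wild type (vertical axis, mean of 2 arrays where both were measured) of the genes of 5 lists in fl26, svb9 and old wild type, with the median as a black bar. Open points had red signal well above background on fewer than 2 arrays. The medians lie between -0.14 and 0.16, and Creb3l4 at -1.62 is the lowest point.

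In svb9 and old wild type limma called 0 genes of the 5 lists, and 0 of all genes tested. It called 0 genes of the 4 lists other than the sensor list in fl26, where 11 of all 20025 tested genes were called. In fl26 the genes with the highest ratio in each of these 4 lists, with the same sign on both arrays, were the stress-induced regulator gene Nupr1 (0.81), the mannosidase-like gene Edem1 of ER-associated degradation (0.56), the secreted ER protein gene Manf (0.41) and the vesicle coat gene Sec24c (0.30). Nupr1 had a saturated spot on 1 fl26 array, and the 2 other probes of Edem1 gave -0.37 and 0.12. The lowest were Pdia6, a disulfide isomerase gene (-0.51, with -0.53 and -0.09 on other probes and a saturated spot on 1 array), Phgdh, of serine synthesis (-0.50, with -0.54 and -0.11 on other probes), Derl3, of ER-associated degradation (-0.34), and Copb2, a vesicle coat gene (-0.27). In the sensor list the 1 gene beside the members that met the rule was Mbtps1, at -0.17, with -0.04 and -0.16 on other probes. It encodes a protease that cuts ATF6 and CREB3 factors in the Golgi.

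The replicate number as a block called 3.59% of all probes in fl26 and 4.38% in old wild type. With it 4 PERK and ATF4 targets were called in fl26 and 2 in old wild type. Nupr1 and Phgdh were among those of fl26 (limma adjusted p = 0.0214 and 0.0311). Edem1 was then called in fl26 as well (adjusted p = 0.0495). In old wild type, against the same 4.38%, the block called 1 gene of ER to Golgi transport and 1 ER chaperone. The chaperone gene was Canx, which had a value on 1 old wild type array only. With extraction date as a term, which called 0.434% of all probes in fl26, limma called 0 genes of the 4 lists other than the sensor list.

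In svb9 the highest of the lists under the same rule, members left out, included Sesn2 (0.46), a stress-induced gene, and Sar1b (0.36), of vesicle budding. The others were Ufd1 (0.29), of protein extraction from the ER, and P4hb (0.27), a disulfide isomerase gene. The member Herpud1 (0.32) lay above Ufd1 in the same list. The lowest were Derl3 (-0.47), the cargo receptor gene Lman1 (-0.35), Phgdh (-0.31) and the chaperone gene Calr (-0.29). Other probes gave 0.04 for Ufd1, -0.0097 for Lman1, and -0.42 and 0.03 for Phgdh. In old wild type the highest under the rule were Copb2 (0.39), the chaperone gene Dnajc3 (0.25) and Edem1 (0.22). Other probes gave -0.36 to 0.02 for Dnajc3 (3 probes), and -0.50 and -0.05 for Edem1. The amino acid transporter gene Slc3a2 (0.09, with 0.0013 on another probe) was the only PERK and ATF4 target that met the rule. The lowest were Vcp, the segregase of degradation (-0.38), Mcfd2, a partner of Lman1 (-0.41, with -0.13 on another probe), and Calr (-0.49). None of the named genes passed the limma test over all probes. Without the rule, old wild type ranged from -0.83 to 1.43 for chaperones and from -0.28 to 1.33 for PERK and ATF4 targets. Both chaperone extremes, Hyou1 and Canx, had a value on 1 array only.

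Markers of tissue cell types were set beside these values. Luminal epithelial genes, the cells in which Creb3l4 is known, were all 15 tested. Both arrays had well measured red signal for 15 genes of fl26, 14 of svb9 and 12 of old wild type. In fl26 their median log2 ratio was -0.0010, against 0.09 in svb9 and 0.28 in old wild type. The basal list had 0.25, -0.0052 and -0.17, the fibroblast list 0.34, 0.05 and -0.13, the macrophage list 0.26, 0.03 and -0.0016, and the endothelial list 0.21, 0.03 and -0.01. By array, fl26 medians were -0.12 and 0.08 for luminal, 0.40 and 0.13 for basal, and 0.74 and -0.12 for fibroblast genes. They were 0.47 and 0.06 for macrophage, 0.26 and -0.01 for endothelial, and 0.08 and -0.18 for smooth muscle genes. Smooth muscle genes had -0.10, 0.06 and -0.14, and B and plasma cell genes 0.0075, 0.03 and 0.03. Of 8 erythrocyte genes 3 were tested (-0.08, -0.04 and 0.09), as were 3 of 10 genes secreted by other lobes and the seminal vesicle (0.02, -0.04 and 0.56). Limma called 0 genes of these 9 lists in any group, against 11 of all 20025 tested genes in fl26 and 0 in svb9 and old wild type. With the replicate block it called 4 luminal, 2 basal and 1 fibroblast gene in old wild type, where 4.38% of all probes were called. In fl26, where the block called 3.59% of all probes, it called 2 basal genes and 1 gene each of the luminal, fibroblast, macrophage, endothelial and other-lobe lists. With extraction date as a term it called 2 basal, 1 macrophage and 1 endothelial gene in fl26, against 0.434% of all probes. The part of these cell types in the Creb3l4 ratio was not tested.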

How the data were processed

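The deposited array files hold, for each spot and channel, the mean intensity and the median background intensity, not normalized, which Agilent Feature Extraction wrote, per the file headers. They also hold flags for signal well above background, saturation and outliers (coded 0 or 1 by the authors' software), and log10 ratios of red over green that were spatially detrended and dye-normalized, per the file headers. A series-wide table of log10 ratios that the authors deposited matches them within rounding and was not tested separately.

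In R 4.3.3 with limma 3.58.1, background was corrected by normexp (offset 50), arrays were normalized by loess, 2256 control spots and flagged outlier spots were left out and saturated spots kept. A probe was tested if well above background in 1 channel on both arrays of a group (27860 probes, 26016 with values on all 6 arrays). A model with 3 group means was fitted over all 6 arrays with moderated variances. Tests were 2-sided, with Benjamini-Hochberg adjustment over all probes. Channel levels came from quantile normalization of mean log2 intensity between arrays (Aquantile). The model was also run on simulated data with noise drawn independently for each array. Same-numbered arrays of the data deviated together, which that simulation does not cover, and its outcome is not given here.

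Genes were named through RefSeq accessions (GRCm38.p6). Members and lists were chosen with earlier results of these data known. The named genes leave out the members. In each list and group they were the highest and lowest with red signal well above background and the same sign on both arrays. The 5 genes most correlated with Creb3l4 were also named. Same-numbered arrays deviated together (r = 0.61, 0.33 and 0.17 for the 3 pairs of groups, numbers taken from the titles), so calls that a replicate block changes are printed. The number of arrays limits the precision.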

Additional observations from a re-analysis of the deposited data

How the results depend on the processing

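Creb3l4 in fl26 stayed below 0 under all 18 alternatives with a value, from -1.77 with the Feature Extraction log ratios to -1.34 with median centring (-1.74 with extraction date as a term). It was not called with these ratios, with median centring, without background correction or with only the fl26 arrays (0 member probes each), nor when any 1 array was left out (0 to 0 member probes, log2 ratio -1.71 to -1.54). With the strict filter it was not tested (0 member probes). In old wild type a normexp offset of 16 called 1 member probe, Creb3l4 (-0.74), as did the replicate block (1 member probe, -0.62), and median centring gave -2.74. The block changed no other call of a member.

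The difference of Creb3l4 between fl26 and svb9 was -0.92 with median centring, -1.39 with the extraction date in the model, and between -1.40 and -0.99 when 1 array was left out. Its difference of old wild type from fl26 turned to -1.41 with median centring, and that from svb9 was -0.40 to 0.014 over single arrays left out, above 0 without svb9 array 1.

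Median centring also turned old wild type below young wild type for Atf4 (-1.57), Atf6 (-1.37), Creb3l1 (-0.083), Ddit3 (-0.59) and Hspa5 (-0.91), and the difference of old wild type from svb9 for Atf4 (-1.34), Atf6 (-1.33), its second probe (-0.81), Creb3l1 (-0.15), Ern1 (-0.64) and Hspa5 (-1.09). It moved old wild type without a change of sign for Xbp1 (-2.86), Creb3 (-1.83), Ern1 (-0.72) and the second Atf6 probe (-0.85). The cause was not tested. That difference also turned for Ern1 (-0.016) and the second Atf6 probe (-0.12) with the Feature Extraction log ratios, for Ern1 with the offset of 16 (-0.043) and for Creb3 with date as a term (0.015). Leaving out single arrays spanned 0 in svb9 for Creb3 (-0.25 to 0.010), Creb3l1 (-0.10 to 0.15) and Hspa5 (-0.078 to 0.57), and in old wild type for Atf6 (-0.078 to 0.17), its second probe (-0.30 to 0.10) and Ddit3 (-0.067 to 0.23). It spanned 0 in the difference of old wild type from svb9 for the second Atf6 probe (-0.19 to 0.21), Creb3 (-0.20 to 0.059), Ddit3 (-0.17 to 0.12) and Ern1 (-0.064 to 0.075).

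Over all probes the count called ranged from 0 to 1001 in fl26 (14 as reported), 0 to 12 in svb9 (0) and 0 to 1211 in old wild type (0), each highest with the replicate block. Most old wild type values are limited by red signal near background.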
